A study of Mus musculus with 9 samples.

Results

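The ligands and receptors that steer growing axons were examined as 1 set of genes on brain arrays of 5xFAD and wild-type mice. Members were taken by symbol: semaphorins of classes 3 to 7, plexins, neuropilins, ephrins, Eph receptors, netrins, Dcc and the Unc5 receptors, Slits and Robos. Of the 19938 genes with a probe set of their own, 68 belonged to the set, 35 ligands and 33 receptors. Of these, 5 had 2 probe sets, and the one with the higher mean over the 9 arrays was used. RNA came from brain tissue, named as cortex in the series title, with 1 array for each of 9 mice in 3 groups of 3 biological replicates. The APP-PBS group were 5x FAD mice given phosphate-buffered saline, the APP-amylin group were 5x FAD mice given human amylin, a hormone of the pancreatic beta cell, and the WT group were B6SJLF1/J wild type mice given the same saline. All mice were about 5 months old and received intraperitoneal injections every day for 10 weeks. In the 5xFAD line, transgenes with familial Alzheimer mutations are driven in neurons by the Thy1 promoter, and plaques form in the brain. Values are log2 intensities. The 3 values of a group are given in the order of the replicate numbers.

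Guidance molecules work in pairs of a ligand and a receptor on the growth cone, the motile tip of an axon. Netrins attract axons through Dcc and repel them through Unc5 receptors. Slits repel through Robo receptors, class 3 semaphorins through neuropilins that signal with plexins, and ephrins and Eph receptors signal in both directions at contacts between cells. In the adult brain the same genes are known for roles in synapse stability, spine shape and vessels, and many of them differ between brain regions and neuron types.

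The promoters of 6 members whose levels stood apart from WT are printed here. In both 5xFAD groups 4 receptors (Unc5c, Unc5a, Unc5b and Nrp1) were lower and 2 ligands (Sema3a and Efnb2) higher. These 6 are a selection and do not stand for all ligands or receptors. In APP-PBS 8 of 35 ligands fell and 2 rose, and 9 of 33 receptors fell. Slit1, Sema5a, Efna1, Sema6b, Epha7, Plxna1 and Plxna4 also fell in both groups and are not printed. Each is the 250 bases before the gene's start, read 5′ to 3′ along the gene, from the RefSeq promoter table for GRCm38.p6. Capitals mark matches on either strand to the GC box GGGCGG, the TATA box TATAAA, the E-box CANNTG or the cyclic AMP element TGACGTCA.
Unc5c (chr3:141465314-141465563, plus strand): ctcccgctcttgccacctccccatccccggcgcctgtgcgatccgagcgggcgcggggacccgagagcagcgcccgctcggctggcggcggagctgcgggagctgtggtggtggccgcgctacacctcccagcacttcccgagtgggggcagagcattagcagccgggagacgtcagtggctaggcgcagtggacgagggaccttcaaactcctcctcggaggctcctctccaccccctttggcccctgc
Unc5a (chr13:54949161-54949410, plus strand): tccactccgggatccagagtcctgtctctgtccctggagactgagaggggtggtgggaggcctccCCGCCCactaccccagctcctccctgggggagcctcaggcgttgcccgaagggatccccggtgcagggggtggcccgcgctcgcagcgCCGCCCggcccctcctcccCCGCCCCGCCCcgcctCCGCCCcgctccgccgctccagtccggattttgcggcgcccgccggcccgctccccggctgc
Unc5b (chr10:60831582-60831831, minus strand): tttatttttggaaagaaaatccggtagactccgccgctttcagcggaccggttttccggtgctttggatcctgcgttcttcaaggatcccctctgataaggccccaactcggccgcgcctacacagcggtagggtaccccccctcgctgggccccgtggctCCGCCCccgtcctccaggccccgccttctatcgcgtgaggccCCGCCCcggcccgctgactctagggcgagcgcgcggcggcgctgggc
Nrp1 (chr8:128358823-128359072, plus strand): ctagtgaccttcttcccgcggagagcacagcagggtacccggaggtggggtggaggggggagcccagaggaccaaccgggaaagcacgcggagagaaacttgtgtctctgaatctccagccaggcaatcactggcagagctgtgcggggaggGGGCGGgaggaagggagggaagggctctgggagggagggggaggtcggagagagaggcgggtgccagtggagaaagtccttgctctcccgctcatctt
Sema3a (chr5:13396534-13396783, plus strand): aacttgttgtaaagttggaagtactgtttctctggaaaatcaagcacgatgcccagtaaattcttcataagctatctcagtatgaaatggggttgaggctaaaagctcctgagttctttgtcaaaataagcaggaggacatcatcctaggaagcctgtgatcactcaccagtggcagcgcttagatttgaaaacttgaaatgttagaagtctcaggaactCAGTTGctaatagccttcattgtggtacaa
Efnb2 (chr8:8661243-8661492, minus strand): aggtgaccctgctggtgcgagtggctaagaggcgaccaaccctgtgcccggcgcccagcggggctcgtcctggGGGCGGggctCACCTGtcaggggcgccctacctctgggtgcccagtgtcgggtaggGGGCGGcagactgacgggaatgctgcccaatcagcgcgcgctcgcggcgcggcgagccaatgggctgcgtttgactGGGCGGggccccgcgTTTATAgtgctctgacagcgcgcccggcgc
Unc5a held 5 GC boxes, of which a pair share 1 base, Efnb2 3, Unc5b 2 and Nrp1 1. A TATA box was found in Efnb2 and an E-box in Efnb2 and in Sema3a, while the Unc5c window held none of the 4 motifs. Of the 68 members, 58 matched the table by symbol. A GC box stood in 12 of the 14 listed members that fell in APP-PBS (85.7%), in 43 of the 58 (74.1%) and in 32.9% of 27025 genes. The windows of these 3 sets had median GC contents of 66.4%, 64.6% and 52%. The 27025 are all genes of the promoter table and were not limited to those measured on the arrays, so the sets differ in kind. TATA boxes were found in 3.45% of the members and 13% of the 27025 genes, E-boxes in 44.8% and 66%, and the cyclic AMP element in 1.72% and 1.62%. These matches describe the letters only.

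The first comparison sets 5xFAD mice on saline against wild-type mice on saline. Guidance genes were mostly lower in APP-PBS mice. With limma, 17 members fell and 2 rose at an adjusted p under 0.05, and 49 did not pass. The share called was 27.9% of members against 8.58% of all genes, with 25% against 4.92% lower and 2.94% against 3.66% higher. The median log2 difference of the 68 members was -0.14, against -0.01 over all genes, and 55 members had lower means in APP-PBS (80.9%, against 54.1% of all genes). In 35 members the APP-PBS and WT values did not overlap (51.5%, against 26.8% of all genes). Of these, 30 had all 3 APP-PBS values below all 3 WT values (44.1%, against 15.6% of all genes) and 5 had them above (7.35%, against 11.2%).

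Markers of brain regions and cell types moved on the same arrays as these genes. In bulk RNA, a different share of brain regions in the tissue taken, fewer cells of a type and less RNA per cell cannot be told apart. All 11 measured striatal markers rose in both 5xFAD groups, and their mean per array was 9.05 to 9.30 in APP-PBS, 9.05 to 9.20 in APP-amylin and 7.51 to 7.72 in WT. Of 12 hippocampal markers 9 fell in each, with array means of 5.92 to 5.96 in APP-PBS, 5.88 to 6.03 in APP-amylin and 6.87 to 6.94 in WT. Of 13 thalamic markers 7 fell in APP-PBS and 8 in APP-amylin, with array means of 7.34 to 7.55 in APP-PBS, 7.27 to 7.81 in APP-amylin and 8.02 to 8.24 in WT. Of 12 microglial markers 11 rose in APP-PBS and 10 in APP-amylin, with array means of 8.25 to 8.87 in APP-PBS, 8.08 to 8.64 in APP-amylin and 6.93 to 6.96 in WT. The cortical markers, chosen to check the labelled tissue, averaged 8.56 to 8.77 in APP-PBS, 8.66 to 8.71 in APP-amylin and 8.63 to 8.77 in WT. Of 13 of them, 1 rose (Cux1) and 3 fell (Etv1, Slc17a7 and Fezf2) in APP-PBS, and 2 rose in APP-amylin (Cux1 and Foxp2). At an unadjusted p under 0.05 (limma) there were 8 in APP-PBS and 9 in APP-amylin. In each group 7 had lower and 6 higher means. The APP-PBS differences ran from -0.62 (Fezf2) to 0.57 (Lamp5), so the overlapping list means do not show that the cortical content was alike. Olfactory bulb markers varied within groups, with array means of 7.43, 6.31 and 6.71 in APP-PBS, 7.22, 6.43 and 7.35 in APP-amylin and 6.47, 6.14 and 6.19 in WT. Every 5xFAD value lay above every WT value for Eomes, Tbx21, Cdhr1, Doc2g, Sp8, Pcp4l1, Ms4a15 and Scgn. Slc6a3 and Uncx lay below WT in the same way, and Th, Gng13 and Eya1 overlapped it. WT replicate 1, with the highest WT mean of this list, measured 8.78 for Slc6a3 and 7.86 for Th. WT replicates 2 and 3 measured 6.82 and 6.98 for Slc6a3 and 6.215 and 6.16 for Th. In the 3 WT arrays Eomes measured 4.81, 4.64 and 4.63, Doc2g 6.16, 6.17 and 6.195 and Scgn 4.17, 4.40 and 4.32. The higher list mean of WT replicate 1 therefore does not show that the bulb markers as a whole were higher there. In APP-PBS 11 of the 13 had higher means, with a median difference of 0.60 and 9 at an unadjusted p under 0.05, but the 2 that were called were those that fell, Slc6a3 and Uncx. In APP-amylin 9 of 13 had higher means, with a median of 0.76, and 2 rose, Eomes and Pcp4l1. With the array mean of all 13 bulb markers added to the fit, 18 guidance genes were called in APP-PBS. Over all genes 1282 were called with this term, against 1710 without it. Of the 18 guidance genes, 14 were among the 19 called without the term, and Efnb2, Epha4, Ntn5, Plxna4 and Unc5b did not pass. In APP-amylin 10 were called, 5 of them among 17 (Slit1, Nrp1, Unc5c, Sema5a and Sema3c). Of 8 myelin markers 1 (Mobp) fell in APP-PBS, with array means of 9.54 to 9.75, and 5 in APP-amylin (Opalin, Mag, Mog, Mbp and Cnp), with 9.24 to 9.43, against 9.67 to 9.89 in WT. Array means of 9 vascular markers were 7.17 to 7.29 in APP-PBS, 7.10 to 7.15 in APP-amylin and 6.93 to 7.07 in WT, with 1 called, Slco1a4, which rose in both. Those of 8 astrocyte markers were 9.99 to 10.25 in APP-PBS, 10.01 to 10.04 in APP-amylin and 9.77 to 9.93 in WT, where Gfap rose in both groups and Aldoc fell in APP-PBS. Those of 8 markers of meninges and choroid plexus were 7.26 to 7.41 in APP-PBS, 7.26 to 7.33 in APP-amylin and 7.45 to 7.58 in WT, with Dcn lower in both. Those of 6 leukocyte markers were 4.30 to 4.42 in both 5xFAD groups and 4.20 to 4.25 in WT, with Cd4 higher in both. The striatal, hippocampal, thalamic, microglial, vascular, astrocyte, meningeal and leukocyte means each separated every 5xFAD array from every WT array, so that these shifts and the genotype cannot be told apart. In some lists a single marker stood far from the rest. In APP-PBS Cd4 differed by 0.90 and the other leukocyte markers by -0.13 to 0.015. Dcn differed by -1.03 and the others of its list by -0.29 to 0.20. Gfap differed by 1.63 and the other astrocyte markers by -0.22 to 0.36. The means of these lists do not show that the cell types as a whole shifted. Of 5 oligodendrocyte precursor markers 0 passed with limma, and at an unadjusted p under 0.05 there were 0 in APP-PBS and 2 in APP-amylin. The parts of these brain regions and cell types in the guidance results were not tested.

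**Figure D1:**
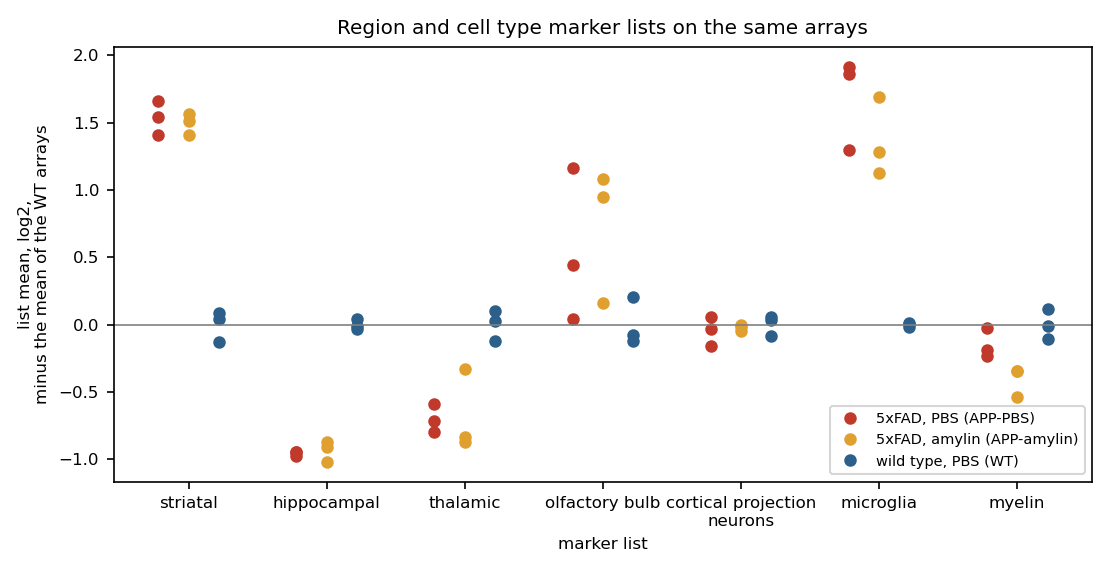
Mean log2 intensity of each marker list per array, minus the mean of the 3 WT arrays (y axis), for 7 lists (x axis); each point is 1 array. Striatal and microglial means lie above WT and hippocampal and thalamic means below it in every 5xFAD array, while olfactory bulb means spread within the 5xFAD groups.

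**Figure D2:**
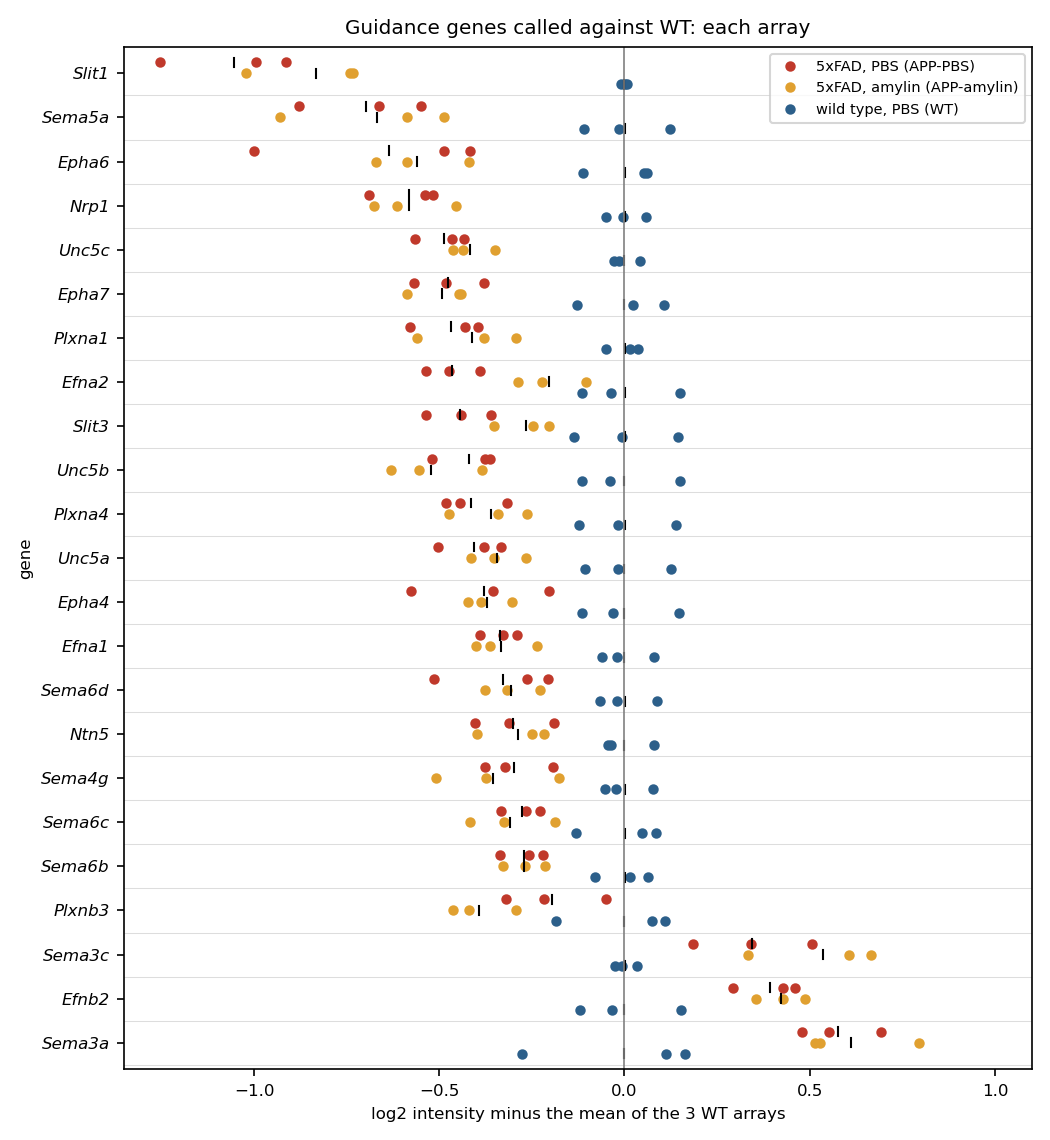
Log2 intensity of each array minus the mean of the 3 WT arrays (x axis) for the 23 guidance genes called in either comparison with WT (rows); points are arrays and black ticks are group means. Slit1 lies furthest to the left, with APP-PBS values of 7.05 to 7.39 against 8.29 to 8.31 in WT, and Sema3c, Efnb2 and Sema3a lie to the right.

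Among Slit ligands, which repel axons through Robo receptors, 2 of 3 fell and the third did not pass. Slit1 (probe set 10467599) measured 7.39, 7.05 and 7.31 in APP-PBS, 7.56, 7.57 and 7.28 in APP-amylin and 8.29, 8.31 and 8.30 in WT mice. All 5xFAD values lay far below every WT value, and the WT arrays hardly varied. The difference for APP-PBS was -1.05 ± 0.10 (SE), or 2.08-fold lower (adjusted p = 0.000388). It was the largest difference of any member in this comparison. Slit3 measured 7.61, 7.51 and 7.69 in APP-PBS, 7.85, 7.80 and 7.70 in APP-amylin and 7.91, 8.04 and 8.19 in WT mice. The APP-PBS group lay below both others without overlap, and its difference from WT was -0.45 ± 0.08 (adjusted p = 0.00871). Slit2 differed by -0.38 ± 0.12 (adjusted p = 0.104). None of the 4 Robo receptors passed: Robo1 and Robo2, the main Slit receptors on axons, differed by -0.17 ± 0.07 and 0.09 ± 0.08, Robo3 by -0.03 ± 0.19 and the endothelial member Robo4 by -0.01 ± 0.06.

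Of the 5 netrin receptors, 3 fell, all of the Unc5 family, through which netrin-1 repels axons. Unc5c measured 8.02, 7.89 and 7.99 in APP-PBS, 8.02, 8.10 and 7.99 in APP-amylin and 8.44, 8.50 and 8.43 in WT mice. The replicates of each group lay close together and the 5xFAD values stayed clear of WT, with a difference for APP-PBS of -0.49 ± 0.05 (adjusted p = 0.000862). Unc5a measured 8.36, 8.53 and 8.49 in APP-PBS, 8.51, 8.60 and 8.45 in APP-amylin and 8.85, 8.76 and 8.99 in WT mice, and fell by 0.41 ± 0.07 in APP-PBS (adjusted p = 0.00969). Unc5b measured 6.51, 6.36 and 6.52 in APP-PBS, 6.25, 6.50 and 6.33 in APP-amylin and 7.04, 6.85 and 6.77 in WT mice, and fell by 0.42 ± 0.09 (adjusted p = 0.0171). In both genes every APP-PBS array lay below every WT array. Unc5d differed by -0.22 ± 0.10 (adjusted p = 0.259), with -0.30 ± 0.09 on its other probe set, and Dcc, the receptor for attraction, by -0.05 ± 0.07 (adjusted p = 0.818). Among the netrins, 1 of 4 fell: Ntn5 measured 5.62, 5.83 and 5.71 in APP-PBS, 5.62, 5.77 and 5.80 in APP-amylin and 5.98, 6.10 and 5.98 in WT mice, with a difference of -0.30 ± 0.07 (adjusted p = 0.0319). Ntn1, the founding attractant, differed by 0.06 ± 0.11, Ntn3 by -0.11 ± 0.06 and the basement membrane member Ntn4 by 0.09 ± 0.07, none of which passed.

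Semaphorins moved in both directions. Of 7 class 3 members, the secreted ones, 1 rose. Sema3a, which repels axons through Nrp1 and class A plexins, measured 8.29, 8.43 and 8.21 in APP-PBS, 8.53, 8.25 and 8.26 in APP-amylin and 7.46, 7.90 and 7.85 in WT mice. WT replicate 1 was the lowest array, and all 5xFAD values lay above all WT values. The rise in APP-PBS was 0.58 ± 0.12, or 1.49-fold (adjusted p = 0.019). Sema3c, another secreted semaphorin, measured 7.95, 7.63 and 7.79 in APP-PBS, 8.05, 7.78 and 8.11 in APP-amylin and 7.42, 7.48 and 7.44 in WT mice. APP-PBS did not overlap WT either, but the difference of 0.34 ± 0.10 did not pass (adjusted p = 0.065). The remaining class 3 genes ran from -0.24 (Sema3e) to 0.04 (Sema3d).

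The membrane-bound semaphorins that passed were all lower in APP-PBS. Sema5a, which carries thrombospondin repeats, measured 7.88, 7.55 and 7.76 in APP-PBS, 7.50, 7.84 and 7.94 in APP-amylin and 8.41, 8.55 and 8.32 in WT mice. The gap of -0.70 ± 0.12 was 1.62-fold (adjusted p = 0.00829), and no 5xFAD array reached the lowest WT array. Of the 4 class 6 members, which bind class A plexins, 2 fell. Sema6b measured 8.61, 8.49 and 8.57 in APP-PBS, 8.50, 8.62 and 8.56 in APP-amylin and 8.89, 8.75 and 8.84 in WT mice, with a difference of -0.27 ± 0.06 (adjusted p = 0.0192). Both probe sets of Sema6b gave identical values, so the second adds no support. Sema6d measured 8.41, 8.10 and 8.35 in APP-PBS, 8.39, 8.24 and 8.30 in APP-amylin and 8.70, 8.60 and 8.55 in WT mice, a difference of -0.33 ± 0.08 (adjusted p = 0.0414) in which APP-PBS replicate 2 was the lowest array. Sema6c (-0.28 ± 0.08, adjusted p = 0.0536) and Sema6a (-0.21 ± 0.12, adjusted p = 0.364) did not pass. Of 6 class 4 genes none passed; the differences ran from -0.30 (Sema4g) to 0.04 (Sema4c). The probe sets of Sema4d gave -0.02 each in APP-PBS, but -0.20 ± 0.09 and -0.02 ± 0.10 in APP-amylin. Sema7a, which is anchored by a lipid, differed by -0.03 ± 0.11.

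Among the receptors of semaphorins, 3 fell and 8 did not pass. Nrp1, the neuropilin that binds Sema3a and also vascular endothelial growth factor, measured 7.53, 7.68 and 7.71 in APP-PBS, 7.55, 7.77 and 7.61 in APP-amylin and 8.17, 8.28 and 8.22 in WT mice. Every 5xFAD array lay below the lowest WT array, and APP-PBS was 1.5-fold lower (-0.58 ± 0.07, adjusted p = 0.0014). Nrp2 differed by -0.26 ± 0.15 (adjusted p = 0.385), with APP-PBS replicate 2 at 6.87 and the other 8 arrays between 7.37 and 7.59. Of the plexins, the signalling subunits, 2 of 9 fell, both of class A. Plxna1 measured 8.09, 8.24 and 8.27 in APP-PBS, 8.29, 8.38 and 8.11 in APP-amylin and 8.68, 8.70 and 8.62 in WT mice, and fell by 0.47 ± 0.08 in APP-PBS (adjusted p = 0.00595). Plxna4 measured 8.73, 8.77 and 8.90 in APP-PBS, 8.87, 8.95 and 8.74 in APP-amylin and 9.09, 9.35 and 9.20 in WT mice, and fell by 0.41 ± 0.08 (adjusted p = 0.0142). The APP-PBS values of both lay below every WT value. Their relatives Plxna2 and Plxna3 differed by -0.06 ± 0.07 and -0.05 ± 0.06, and Plxnd1, the receptor of Sema3e, by 0.30 ± 0.10 (adjusted p = 0.102).

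Ephrins and their receptors were lower where they passed, with 1 exception. Of the 5 ephrin-A ligands, which are held in the membrane by a lipid anchor, 2 fell. Efna2 measured 6.35, 6.27 and 6.20 in APP-PBS, 6.64, 6.52 and 6.45 in APP-amylin and 6.89, 6.63 and 6.70 in WT mice. APP-PBS lay below both other groups, and its difference from WT was -0.47 ± 0.08 (adjusted p = 0.00688). Efna1 measured 5.90, 5.96 and 5.995 in APP-PBS, 6.05, 5.92 and 5.88 in APP-amylin and 6.36, 6.26 and 6.22 in WT mice, and fell by 0.33 ± 0.06 in APP-PBS (adjusted p = 0.01). Efna3 (-0.33 ± 0.09, adjusted p = 0.0557), Efna4 (-0.02 ± 0.09) and Efna5 (0.21 ± 0.09) did not pass. The exception was Efnb2, a transmembrane ephrin known in vessels and synapses, with 8.44, 8.31 and 8.47 in APP-PBS, 8.44, 8.37 and 8.50 in APP-amylin and 7.98, 7.89 and 8.17 in WT mice. It rose by 0.39 ± 0.08, or 1.31-fold (adjusted p = 0.014), and every 5xFAD value exceeded every WT value. Efnb3 (-0.34 ± 0.10, adjusted p = 0.0831) and Efnb1 (-0.12 ± 0.07) did not pass.

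Of the 9 EphA receptors 3 fell, and of the 4 EphB receptors 0 passed, with 1 of 13 Eph genes at a mean difference above 0.1, Epha3 (0.11 ± 0.17). Epha7, a receptor of ephrin-A ligands, measured 8.72, 8.91 and 8.80 in APP-PBS, 8.84, 8.70 and 8.84 in APP-amylin and 9.16, 9.39 and 9.31 in WT mice. It fell by 0.48 ± 0.08 (adjusted p = 0.00534), with the groups apart. Epha6 measured 8.67, 8.08 and 8.60 in APP-PBS, 8.41, 8.50 and 8.66 in APP-amylin and 8.97, 9.15 and 9.14 in WT mice. APP-PBS replicate 2 was the lowest array, and the difference was -0.63 ± 0.14 (adjusted p = 0.0224). Epha4, which binds ephrins of both classes, measured 9.36, 9.73 and 9.58 in APP-PBS, 9.51, 9.63 and 9.55 in APP-amylin and 9.82, 10.08 and 9.90 in WT mice, a difference of -0.38 ± 0.10 just past the threshold (adjusted p = 0.0442). Epha5 differed by -0.21 ± 0.08 and Epha8 by -0.23 ± 0.10. The EphB differences ran from -0.13 (Ephb3) to 0.01 (Ephb4). Ephb2 was not analysed here.

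The fall of Slit1, Unc5c, Nrp1, Epha7, Plxna1, Efna2, Sema5a, Slit3, Unc5a and Efna1 in APP-PBS passed under each of the alternatives run and without each of the 9 arrays in turn, except that Efna1 was not tested once the lowest 50% of genes were left out. The count of 19 fell to 12 without WT replicate 1, where Efnb2, Epha4, Epha6, Ntn5, Sema6b, Sema6d and Unc5b did not pass. It was 14 without APP-PBS replicate 3 (Efnb2, Epha4, Ntn5, Sema6b and Sema6d lost) or WT replicate 2 (Efnb2, Epha4, Epha6, Ntn5 and Sema6d lost). It was 15 without WT replicate 3 (Epha4, Epha6, Ntn5, Sema6b and Sema6d lost) or APP-PBS replicate 2, where Plxna4, Sema3a, Sema6b, Sema6d and Unc5b did not pass (Plxna4 and Sema3a at 0.0501 and 0.0707 as adjusted p). Epha4 was called with only 1 of the 9 arrays left out, APP-PBS replicate 2. Counts over all genes fell as well, from 1710 to 863, 1126 and 996 without WT replicates 1, 2 and 3. They were 1145 and 969 without APP-PBS replicates 2 and 3.

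**Figure D3:**
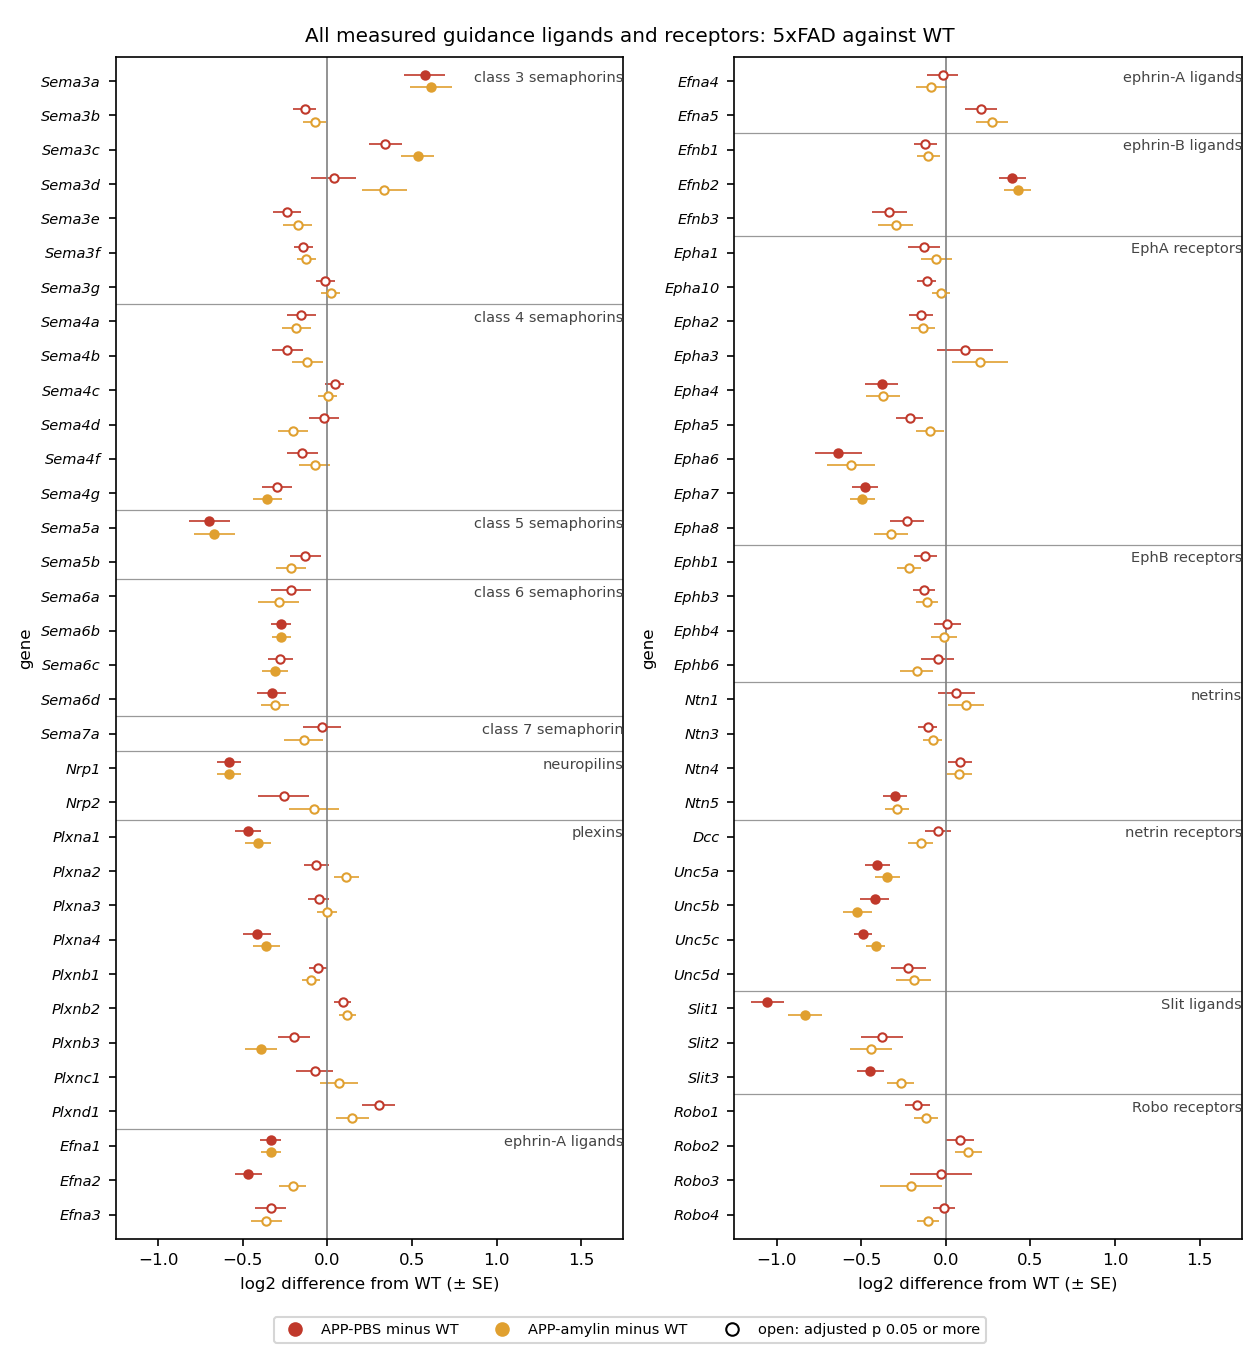
Log2 difference from WT (x axis, bars ± SE) for all 68 guidance genes (rows, grouped by family), for APP-PBS and APP-amylin, which share the same 3 WT arrays; filled circles have an adjusted p under 0.05. Most filled circles lie to the left of 0, and Sema3a, Sema3c and Efnb2 lie to the right.

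The second comparison sets amylin-treated 5xFAD mice against wild type. It uses the same 3 WT arrays as the first, so the 2 sets of differences are not independent. In APP-amylin, 14 members fell, 3 rose and 51 did not pass. The shares were 20.6% lower against 2.86% of all genes and 4.41% higher against 2.35%, or 25% called against 5.21%. The median difference of the members was -0.14, against -0.01 over all genes. Of the members, 53 had lower means (77.9%, against 54.1% of all genes). The groups did not overlap in 35 members (51.5%, against 23.1%), of which 29 lay wholly below WT (42.6%, against 12.3% of all genes) and 6 wholly above (8.82%, against 10.8%).

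By role, the repulsive ligand Slit1 fell by 0.83 ± 0.10 in APP-amylin (adjusted p = 0.00189), while Slit2 and Slit3 did not pass (-0.44 ± 0.12 and -0.27 ± 0.08). The same number of netrin receptors as in APP-PBS, 3 of 5, fell: Unc5b by 0.52 ± 0.09 (adjusted p = 0.00931), Unc5c by 0.42 ± 0.05 (adjusted p = 0.00306) and Unc5a by 0.34 ± 0.07 (adjusted p = 0.0273). Of the class 3 semaphorins 2 rose, Sema3a by 0.61 ± 0.12 (adjusted p = 0.0204) and Sema3c by 0.53 ± 0.10 (adjusted p = 0.0148). Sema5a fell by 0.67 ± 0.12 (adjusted p = 0.0145). Among receptors, Nrp1 fell by 0.58 ± 0.07 (adjusted p = 0.00211), Epha7 by 0.49 ± 0.08 (adjusted p = 0.00691), Plxna1 by 0.41 ± 0.08 (adjusted p = 0.0154) and Plxna4 by 0.36 ± 0.08 (adjusted p = 0.0356). Of the ephrins, Efna1 fell by 0.33 ± 0.06 (adjusted p = 0.0148) and Efnb2 rose by 0.42 ± 0.08 (adjusted p = 0.0143).

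In this comparison 4 calls were of genes that did not pass in APP-PBS. One was Sema3c. Plxnb3, a class B plexin that binds Sema5a, measured 6.70, 6.60 and 6.87 in APP-PBS, 6.46, 6.62 and 6.50 in APP-amylin and 7.03, 6.99 and 6.73 in WT mice, so that APP-PBS overlapped WT and APP-amylin did not. Its difference in APP-amylin was -0.39 ± 0.09 (adjusted p = 0.0449). Sema4g measured 6.39, 6.20 and 6.26 in APP-PBS, 6.07, 6.40 and 6.21 in APP-amylin and 6.66, 6.53 and 6.56 in WT mice, a difference of -0.35 ± 0.09 (adjusted p = 0.0467). Sema6c measured 6.39, 6.28 and 6.35 in APP-PBS, 6.20, 6.29 and 6.43 in APP-amylin and 6.70, 6.66 and 6.49 in WT mice, a difference of -0.31 ± 0.08 (adjusted p = 0.0472). These 3 adjusted p lie just under the threshold and did not pass in most alternatives: Plxnb3 lost the call in 10 of 19, Sema4g in 11 of 18 and Sema6c in 12 of 18, each with the replicate block and with the 2 groups fitted alone among them. The difference between the 5xFAD groups themselves is tested in the third comparison. Sema6b fell by 0.27 ± 0.06 (adjusted p = 0.0273). Epha6 (-0.56 ± 0.14, adjusted p = 0.0508), Epha4 (-0.37 ± 0.10, adjusted p = 0.0628), Ntn5 (-0.29 ± 0.07, adjusted p = 0.0513) and Sema6d (-0.31 ± 0.08, adjusted p = 0.0698) did not pass.

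Slit1, Nrp1 and Unc5c passed in APP-amylin under each alternative run and without each array. The count of 17 fell to 6 without WT replicate 1, 8 without APP-amylin replicate 3, and 10 without APP-amylin replicate 1 or WT replicate 2. The counts over all genes in these fits are not given here. The 6 that passed without WT replicate 1 were Slit1, Nrp1, Unc5c, Epha7, Unc5b and Plxna4, and none of the 3 increases passed there or without APP-amylin replicate 3.

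The third comparison, amylin against saline within 5xFAD mice, addresses the effect of amylin. No guidance gene passed with limma, and of all 19938 genes 1 did (0.00502%), Fkbp5, a gene outside the set that is named here after its value was seen. At an unadjusted p under 0.05 there were 4 members (5.88%, against 6.9% of all genes), of which 4 were higher in APP-amylin (5.88%, against 3.72% of all genes) and 0 lower (0%, against 3.18%). The median difference was 0.02, against 0.0006 over all genes, and turned to -0.0029 without APP-PBS replicate 2. In 3 members the groups did not overlap (4.41%, against 9.3% of all genes), with 3 higher in APP-amylin (4.41%, against 5.49%) and 0 lower (0%, against 3.81%).

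The 5 members with the smallest p were all higher in APP-amylin and are ligands except for Plxna2. Efna2, whose values are given above, averaged 6.54 ± 0.09 in APP-amylin and 6.27 ± 0.07 in APP-PBS (SD, n = 3 each), a difference of 0.26 ± 0.08 (adjusted p = 0.664). Its groups did not overlap. Plxna2, a receptor of class 6 semaphorins, measured 9.17, 9.23 and 9.04 in APP-amylin and 8.96, 8.96 and 9.005 in APP-PBS, a difference of 0.18 ± 0.07 (adjusted p = 0.712) between groups that lay apart. Slit1 differed by 0.22 ± 0.10 (adjusted p = 0.721), with APP-amylin replicate 3 inside the APP-PBS range, and Slit3 by 0.18 ± 0.08 (adjusted p = 0.721) without overlap. Sema3d, a secreted semaphorin, measured 6.31, 5.92 and 6.16 in APP-amylin and 6.11, 5.61 and 5.76 in APP-PBS, a difference of 0.30 ± 0.13 (adjusted p = 0.721).

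At 95% confidence the amylin minus saline difference was -0.16 to 0.16 for Nrp1, -0.05 to 0.19 for Unc5c and -0.24 to 0.31 for Sema3a. For Efna2 it was 0.09 to 0.44 and for Slit1 0.0007 to 0.44. These intervals are not adjusted for the number of genes. Efna2 and Slit1 were among the members with the smallest p and did not pass with limma (adjusted p = 0.664 and 0.721). Over all 68 members the differences ran from -0.20 (Plxnb3, adjusted p = 0.737) to 0.30 (Sema3d). The median SE of a difference was 0.08. None of these p shows that a gene was alike in both groups.

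**Figure D4:**
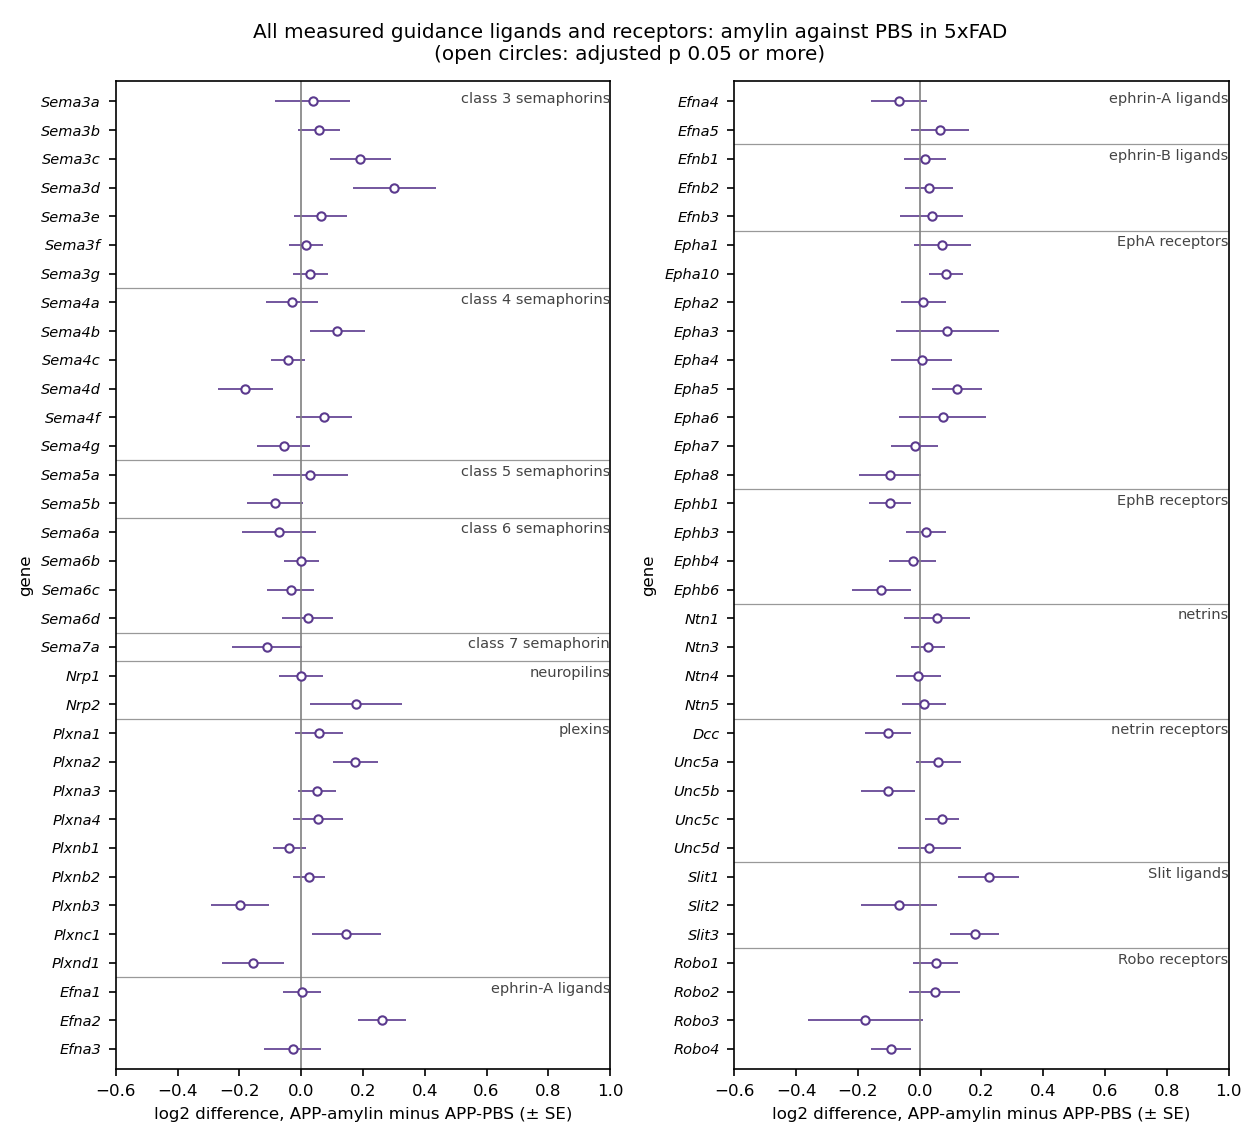
Log2 difference of APP-amylin minus APP-PBS (x axis, bars ± SE) for all 68 guidance genes (rows, grouped by family); open circles have an adjusted p of 0.05 or more. Every circle is open, and they lie between -0.20 (Plxnb3) and 0.30 (Sema3d).

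Genes that act beside or below these ligands and receptors in axon guidance were lower in 5xFAD mice where they passed, with 1 exception. Of 74 measured genes on the list, 13 fell, 1 rose and 60 did not pass in APP-PBS, or 18.9% called and 17.6% lower, against 8.58% and 4.92% of all genes. Their median difference was -0.07, against -0.01 over all genes. The largest decrease was that of Ntng1, netrin-G1, a lipid-anchored relative of the netrins on thalamic axons, with -0.998 ± 0.14 (adjusted p = 0.00281). Adhesion receptors Dscam (-0.48 ± 0.07, adjusted p = 0.00323) and Chl1 (-0.38 ± 0.08) fell, as did Nell2, a secreted ligand of Robo3 (-0.42 ± 0.07). Collapsin response mediator proteins act inside the growth cone, where Dpysl2 relays Sema3a. The RNA of 4 genes of this family fell in the tissue: Crmp1 (-0.47 ± 0.09), Dpysl2 (-0.38 ± 0.06), Dpysl3 (-0.51 ± 0.12) and Dpysl4 (-0.30 ± 0.08). Rnd1, a GTPase that binds plexins (-0.41 ± 0.08), Arhgef11, an exchange factor bound by class B plexins (-0.31 ± 0.05), Limk1, the kinase of cofilin (-0.39 ± 0.09), Enah, an actin regulator (-0.33 ± 0.06), and Lingo1, a partner of the Nogo receptor (-0.38 ± 0.09), fell as well. The exception was Ngef, ephexin-1, an exchange factor bound by Epha4, with 0.45 ± 0.07 (adjusted p = 0.00566).

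In APP-amylin, 10 of the 74 fell, 1 rose and 63 did not pass, or 14.9% called and 13.5% lower, against 5.21% and 2.86% of all genes. The median was -0.04, against -0.01 over all genes. Ngef rose by 0.44 ± 0.07 (adjusted p = 0.00912), and Ntng1 fell by 0.93 ± 0.14 (adjusted p = 0.00614). Mag, the myelin glycoprotein that inhibits axon growth, fell by 0.69 ± 0.13 (adjusted p = 0.0154), and the adhesion genes Cntn2 and Nfasc by 0.39 ± 0.09 and 0.29 ± 0.07. Mag stands on both lists, so this is the same call as that counted among the 5 myelin markers that fell in APP-amylin. Dscam did not pass there (-0.25 ± 0.07, adjusted p = 0.0692), nor did Arhgef11 (-0.13 ± 0.05, adjusted p = 0.19). Between amylin and saline none of the 74 passed with limma, and 4 had an unadjusted p under 0.05 (5.41%, against 6.9% of all genes). The smallest p were those of Arhgef11 (0.18 ± 0.05, adjusted p = 0.654) and Dscam (0.22 ± 0.07, adjusted p = 0.664).

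**Figure D5:**
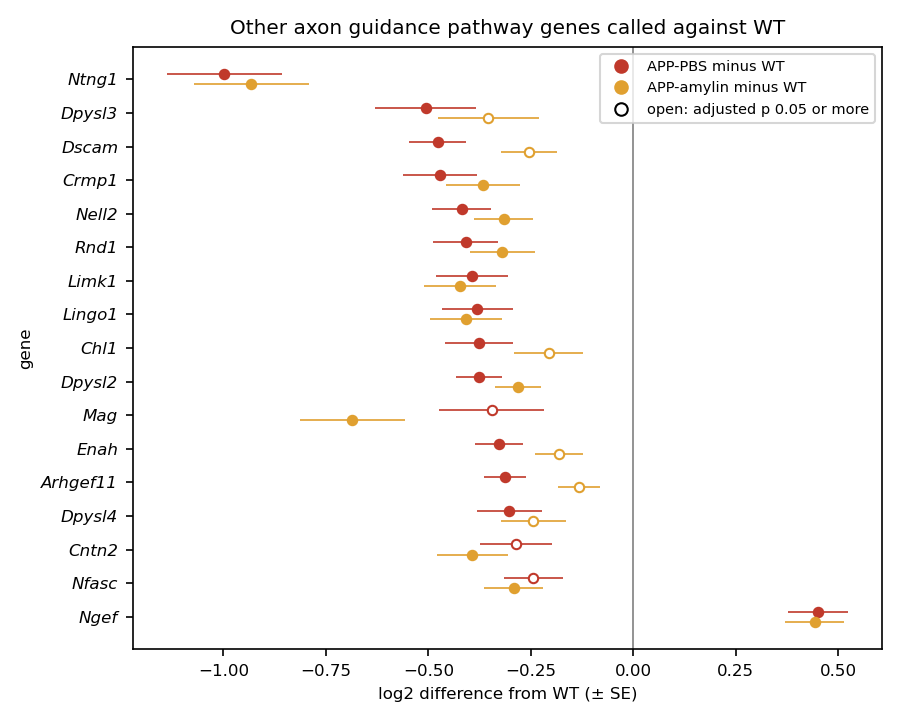
Log2 difference from WT (x axis, bars ± SE) for the 17 other axon guidance pathway genes called in APP-PBS or APP-amylin (rows); filled circles have an adjusted p under 0.05. Ntng1 lies furthest to the left and Ngef alone to the right of 0.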

How the data were processed

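Total RNA was hybridised to Affymetrix mouse gene arrays, 1 per mouse. The deposited log2 intensities of 35556 probe sets were made by the authors with RMA in oligo, per the submitters' processing notes; versions and build are not given in the sources used here. RMA gives all arrays like distributions (medians 5.71 to 5.79) and can hide a shift shared by all genes. The number of arrays limits the precision. Of the probe sets, 21789 name 1 gene, 1621 several and 12146 none. Symbols were checked by Entrez ID against RefSeq for GRCm38.p6, which changed 0. The probe set with the highest mean stood for each of 19938 genes, with no filter on dim genes.

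All genes were fitted with limma 3.58.1 in R 4.3.3, as 3 group means over 9 arrays (6 residual and 3.53 prior degrees of freedom), with Benjamini-Hochberg adjustment over all genes. Calls needed an adjusted p under 0.05, and "rose" and "fell" are used only of calls. Differences are log2 ± SE. The fit was tested on simulated data.

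The members and 13 gene lists (202 genes, 191 measured) were chosen with earlier results of these data known. Values per array are given for members called in any comparison and for the 5 with the smallest p in each. Called genes of other lists were to be named up to 6 per list and comparison by p. Naming further pathway genes and further olfactory bulb markers was decided after their values were seen. Alternatives were a second quantile normalization, median centring, leaving out the lowest 25% or 50% of genes, a trended robust prior, fits of 2 groups only, array weights, a replicate block, the mean of a gene's probe sets, a term for the mean of the olfactory bulb markers, a 1.2-fold minimum, an adjusted p under 0.1 and leaving out each array.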

Additional observations from a re-analysis of the deposited data

How the results depend on the processing

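The count of 19 guidance genes called in APP-PBS ran from 12 to 22 when single arrays were left out and from 18 to 24 under the other alternatives. The count of 17 in APP-amylin ran from 6 to 18 without single arrays and was 10 with a term for the mean of the olfactory bulb markers, where 589 of all genes were called, against 1039; under the other alternatives it ran from 13 to 24. Between amylin and saline 0 were called under each alternative run (limma), and 4 had an unadjusted p under 0.05 in the fit reported. The median member difference ran from -0.16 to -0.14 in APP-PBS and from -0.16 to -0.13 in APP-amylin without single arrays. In APP-amylin array weights gave -0.12, the olfactory bulb term -0.17 and the upper 50% of genes alone -0.17. For amylin against saline it ran from -0.0029 to 0.0241 without single arrays, and was 0.0314 in the upper 50% of genes and 0.011 with the olfactory bulb term. Leaving out an array leaves fewer samples, but the APP-PBS count also differed by array. It was 12, 14 and 15 without WT replicates 1, 2 and 3, and 22 without APP-amylin replicate 1. Over all genes 863, 1126, 996 and 1779 were called in these fits, against 1710 in the fit reported. The cause of these and the other shifts was not tested. Named members kept their direction in each of the alternatives run: of 359 member results for APP-PBS 43 lost the call, and of 320 for APP-amylin 74 did. With the replicate number as a block, 21, 19 and 0 members were called in the 3 comparisons. Same-numbered arrays of APP-PBS and WT correlated at 0.0645 to 0.183 in their deviations, and differently numbered ones at -0.143 to 0.0384. For APP-amylin and WT the ranges were -0.0556 to 0.141 and -0.0882 to 0.126. For APP-amylin and APP-PBS they were 0.0997 to 0.13 and -0.232 to 0.126. The labels do not state that the numbers pair the mice and these values do not settle it, so the fit reported used no block. Signal over background was not used here, so dim probe sets could not be set apart.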
